A study of Mus musculus with 96 samples.

Results

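The Period genes Per1, Per2 and Per3 were followed by RNA-seq in mouse intestinal organoids of 4 genotypes over a day after clock synchronization. The members were taken by symbol, 3 of the 55536 genes in the expression tables, and all 3 passed the filter on low values in every comparison. Organoids are self-organising epithelial cultures, here from C57BL/6 mice. The genotypes, as labelled, were APCmin/-;BMAL1-/- (Apc-min Bmal1-null), APCmin/-;BMAL1+/+ (Apc-min), APC+/+;BMAL1-/- (Bmal1-null) and APC+/+;BMAL1+/+ (control). All cultures received 0.1 µM dexamethasone for 1 h, which was then replaced by fresh medium, and were collected every 2 h at 12 times between 24 and 46 h. Every genotype therefore carries the glucocorticoid pulse, and no culture without it was analysed here. Expression was available for 88 libraries, 22 of each genotype, with 2 libraries in 40 of the genotype and time groups and 1 library in 8. Each genotype was represented by 2 organoid lines, and the labels do not give the line of a library, so the p-values measure how much libraries vary, which may be technical, and not how much lines vary. Both Apc-min genotypes were grown in EN medium and both others in ENR, and the library numbers run to 48 for the Apc-min genotypes and from 49 to 96 for the others. Apc genotype, medium and library series cannot be told apart.

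Period proteins are the negative arm of the circadian feedback loop. BMAL1, encoded by Arntl, pairs with CLOCK or NPAS2 at E-box elements and switches on the Period and Cryptochrome genes, whose proteins bind each other, enter the nucleus and repress the pair that made them. PER1 and PER2 are the members the loop depends on in mice, whereas loss of PER3 has milder effects. Period genes also have inputs that bypass the loop: Per1 and Per2 carry glucocorticoid and cAMP response elements, and D-box elements bound by DBP, TEF and HLF add to their control.

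Per1 (ENSMUSG00000020893) lies at chr11:69095217-69109960 on the plus strand, Per2 (ENSMUSG00000055866) at chr1:91415982-91459324 on the minus strand, and Per3 (ENSMUSG00000028957) at chr4:151003652-151044665 on the minus strand, all in GRCm38. Per3 lies within the span of Camta1 on the same strand. The exons of both genes share 0 bases, and Camta1 averaged 24.9 TPM (transcript abundance scaled for length, with the same total in every library) over the 88 libraries. RefSeq start-site windows (GRCm38.p6) were matched for Per1 and Per3 and are shown because they carry the kinds of element through which BMAL1, the D-box factors and cAMP act. Each line gives the 250 bases upstream of an annotated start, 5′ to 3′ on the strand of the gene, with matches in capitals.
Per1 window at chr11:69098699-69098948, plus strand: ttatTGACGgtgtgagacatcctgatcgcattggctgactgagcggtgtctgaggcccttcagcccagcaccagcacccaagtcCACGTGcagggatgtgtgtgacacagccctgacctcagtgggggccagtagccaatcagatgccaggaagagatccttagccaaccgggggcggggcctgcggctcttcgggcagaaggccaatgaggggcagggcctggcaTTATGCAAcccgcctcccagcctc
Per1 window at chr11:69099902-69100151, plus strand: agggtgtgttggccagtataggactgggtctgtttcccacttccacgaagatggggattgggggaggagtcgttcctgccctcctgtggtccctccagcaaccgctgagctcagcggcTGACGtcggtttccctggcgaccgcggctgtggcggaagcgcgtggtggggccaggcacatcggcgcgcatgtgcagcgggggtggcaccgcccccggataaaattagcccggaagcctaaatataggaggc
Per3 window at chr4:151044666-151044915, minus strand: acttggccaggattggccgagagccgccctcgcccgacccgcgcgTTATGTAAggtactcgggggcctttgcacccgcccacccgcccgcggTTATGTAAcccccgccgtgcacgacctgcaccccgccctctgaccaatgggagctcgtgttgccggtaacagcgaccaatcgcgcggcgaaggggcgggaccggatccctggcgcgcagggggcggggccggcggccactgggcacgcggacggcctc
The motifs searched on both strands were the E-box CACGTG and its variant CACGTT, the D-box TTATGTAA and its variant TTATGCAA, the cAMP response element TGACGTCA and its core TGACG, which overlaps it. The first Per1 window holds CACGTG at position -166, TTATGCAA at -24 and TGACG at -246, counted from the annotated start to the first base of the match. The other Per1 window holds TGACG at position -132. The Per3 window holds TTATGTAA at position -205 and again at -158. Among all 32851 RefSeq windows of this length, 6.02% hold CACGTG, 3.85% CACGTT, 0.819% TTATGTAA, 0.694% TTATGCAA, 1.55% TGACGTCA and 17.8% TGACG. A match describes letters only and does not show that a factor binds.

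Uniquely mapped reads numbered 28.8 to 48.1 M per library, with a median of 35.4 M. Arntl averaged 8.67 TPM ± 1.14 in Bmal1-null and 14.9 TPM ± 2.74 in control organoids (SD, n = 22 each), and 4.86 TPM ± 2.42 in Apc-min Bmal1-null and 11.1 TPM ± 3.44 in Apc-min organoids (SD, n = 22 each), or 4.39 TPM ± 1.03 and 11.4 TPM ± 3.14 without the 28 h pair described next (n = 21 each). Gene-level values do not show which part of Arntl is lost. Both Apc-min genotypes have 1 library at 28 h, replicate 1 of each, that goes against its Bmal1 label. On an axis over 956 genes from 0 (Apc-min) to 1 (Apc-min Bmal1-null), the library labelled Apc-min Bmal1-null scored -0.23 against 0.94 to 1.08 in the other 21, and the library labelled Apc-min scored 0.99 against -0.29 to 0.26 in the other 21. Both stay under their labels here, and results that rest on them are also given without them. Epithelial markers (7 genes) summed to 9531 to 16476 TPM over all libraries, whereas 6 of 7 fibroblast markers and all 3 smooth muscle markers averaged under 0.1 TPM in every genotype. Summed immune and endothelial markers were higher in the Apc-min genotypes. Median sums of the 7 immune markers were 7.53 TPM in Apc-min Bmal1-null, 12.4 in Apc-min, 3.40 in Bmal1-null and 3.30 in control organoids. The 4 endothelial markers had 8.51, 3.19, 0.255 and 0.280 TPM in the same order, and the 4 neuron and glia markers 0.600, 0.785, 0.670 and 0.685 TPM. Single immune markers went both ways. Between Apc-min and control organoids Cd68 rose with a log2 difference of 2.19 and Itgam fell with -1.08. Between Apc-min Bmal1-null and Bmal1-null organoids the values were 1.59 and -1.18. Markers of differentiated epithelium were lower in the Apc-min genotypes. The 5 enterocyte markers had a median sum of 45.9 TPM in Apc-min Bmal1-null, 4.53 TPM in Apc-min, 4391 TPM in Bmal1-null and 4877 TPM in control organoids. The 4 stem cell markers had 121, 161, 782 and 894 TPM in the same order of genotypes. Of these, Olfm4, Lgr5 and Smoc2 were lower in both Apc-min genotypes, whereas Ascl2 was higher. The log2 difference of Ascl2 was 1.07 between Apc-min and control organoids and 0.81 between Apc-min Bmal1-null and Bmal1-null organoids. Sex-linked genes split the Bmal1-null genotypes by library number. At each time the library with the lower number and the one with the higher number form 2 sets. Xist, the RNA of the inactive X chromosome, ran from 41.8 to 88.4 TPM in the higher-numbered set of Apc-min Bmal1-null organoids and from 39.6 to 84.9 TPM in that of Bmal1-null organoids, and stayed at 0.25 TPM or less in all other libraries. The Y-linked Eif2s3y was at 0.61 TPM or less in those 2 sets and at 39 TPM or more in all others. In bulk samples fewer cells of a type and less RNA per cell cannot be told apart.

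Per1 was the most abundant Period transcript in every genotype, and Per2 was the one whose level differed most between them. Per1 had a lowest, median and highest library of 8.82, 19.8 and 24.3 TPM in Apc-min Bmal1-null, 12.7, 18.6 and 27.3 TPM in Apc-min, 16.8, 24.0 and 30.9 TPM in Bmal1-null, and 16.2, 26.2 and 32.9 TPM in control organoids. The 4 ranges overlapped. Per2 had 2.86, 7.46 and 12.4 TPM in Apc-min Bmal1-null, 1.91, 2.86 and 6.78 TPM in Apc-min, 12.6, 21.4 and 26.7 TPM in Bmal1-null, and 6.60, 11.3 and 18.3 TPM in control organoids. Its order from high to low was Bmal1-null, control, Apc-min Bmal1-null and Apc-min, and every neighbouring pair of ranges overlapped. Per3 had 1.03, 2.38 and 5.88 TPM in Apc-min Bmal1-null, 1.73, 2.98 and 6.24 TPM in Apc-min, 2.00, 2.65 and 3.23 TPM in Bmal1-null, and 1.90, 3.26 and 4.98 TPM in control organoids. It was the scarcest member except in Apc-min organoids, where Per2 averaged 2.92 TPM ± 1.01 and Per3 3.62 TPM ± 1.57 (SD, n = 22).

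**Figure D1:**
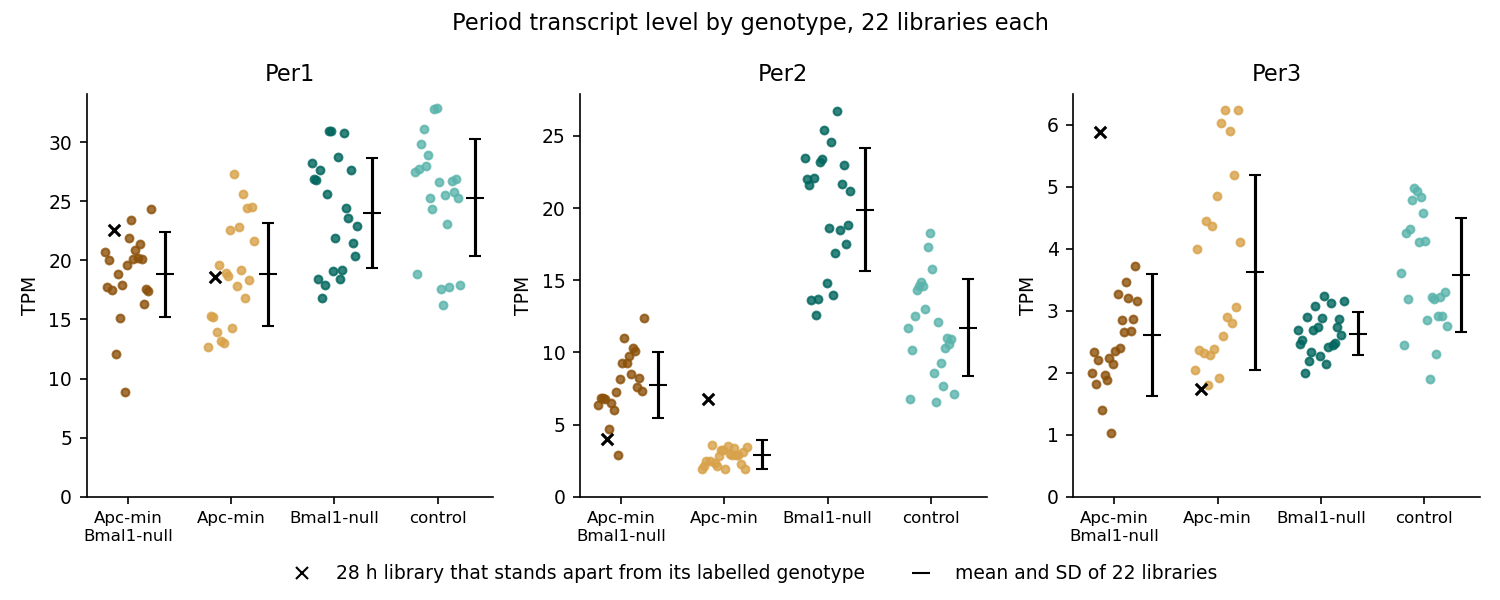
TPM of Per1, Per2 and Per3 in each of 22 libraries per genotype (points), with the mean and SD beside them. Per2 averaged 7.73 TPM in Apc-min Bmal1-null, 2.92 in Apc-min, 19.9 in Bmal1-null and 11.7 in control organoids, and the crosses mark the 28 h libraries that go against their labels, such as the Apc-min library at 6.78 TPM of Per2.

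The makeup of the Period pool differed between genotypes. Of the summed TPM of the 3 genes, Per2 made up 42.6% ± 1.77 in Bmal1-null and 28.6% ± 2.81 in control organoids (SD, n = 22 each). These shares did not overlap, at 39.8 to 45.4% in Bmal1-null and 24.1 to 33.9% in control libraries. Per2 made up 26.2% ± 3.99 in Apc-min Bmal1-null and 11.8% ± 3.63 in Apc-min organoids, where the 28 h pair gave the values of 12.2% (the lowest Apc-min Bmal1-null library) and 25% (the highest Apc-min library). Per3 made up 8.89%, 13.8%, 5.76% and 8.80% of the pool in Apc-min Bmal1-null, Apc-min, Bmal1-null and control organoids. The summed level was 29.2 TPM ± 6.01, 25.4 TPM ± 6.01, 46.5 TPM ± 9.0 and 40.6 TPM ± 8.79 in the same order (SD, n = 22 each).

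The first comparison asks what loss of the activator BMAL1 does to its Period targets where Apc is intact. Per2 rose, Per3 fell and Per1 did not pass the test. Per2 averaged 19.9 TPM ± 4.23 in Bmal1-null and 11.7 TPM ± 3.36 in control organoids (SD, n = 22 each), a log2 difference of 0.74 ± 0.11 (SE), or 1.67-fold, with an adjusted p of 1.00e-05 in limma. Log2 differences are on the log2(TPM + 1) scale with collection time held, and understate changes of low genes. Per2 was higher in Bmal1-null organoids at 11 of 12 times, and 15 of the 22 Bmal1-null libraries lay above every control library. The difference was widest at 40 h, at 1.3 log2, and was -0.10 at 34 h, when control Per2 was highest. Per3 averaged 2.63 TPM ± 0.344 in Bmal1-null and 3.58 TPM ± 0.921 in control organoids, with a log2 difference of -0.31 ± 0.07 (adjusted p = 0.00213 in limma). It was lower at 11 of 12 times, most at 30 h with a difference of -0.75, and 11 of the 22 control libraries lay above every Bmal1-null library. With all 4 genotypes in 1 fit the Per3 difference was again -0.31 but missed the threshold (adjusted p = 0.153). Per1 averaged 24.0 TPM ± 4.63 in Bmal1-null and 25.3 TPM ± 4.93 in control organoids, and its log2 difference of -0.07 had a 95% interval of -0.25 to 0.10. Sex-linked genes moved with this comparison, with 1 higher and 4 lower of 5 (Xist 2.96, Eif2s3y -2.83 on the log2 scale). Within the lower-numbered libraries, where Xist was near 0 and Eif2s3y was present in both genotypes, Per2 averaged 20.6 TPM ± 4.55 in Bmal1-null and 12 TPM ± 3.19 in control organoids, and Per3 2.69 TPM ± 0.362 and 3.70 TPM ± 0.966 (SD, n = 11 each). Of 12654 genes tested, 2.09% were called higher and 1.47% lower, and 1 Period gene was called in each direction.

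The clock genes around the Period genes shifted strongly in the same comparison. There 2.09% of all genes were called higher and 1.47% lower. Of 13 clock partners tested out of 16 listed, 5 rose and 3 fell, with a median log2 difference of 0.06 against 0.00 over all genes. Those that fell include Arntl itself (-0.70), the gene altered by the genotype. Nr1d1 and Nr1d2, which encode the REV-ERB repressors of Arntl, fell with log2 differences of -2.38 ± 0.10 and -1.92 ± 0.11 (SE). Cry2, which encodes a partner of PER proteins in repression, rose with a difference of 1.25 ± 0.08. Of 19 tested genes for kinases, phosphatases, ligases and partners of PER protein, only Usp2 passed, a deubiquitinase that acts on clock proteins, with a difference of 0.54 ± 0.07. Of 13 glucocorticoid response genes 2 rose and 1 fell: Sgk1 with 0.42 ± 0.07, Tsc22d3 with 0.14 ± 0.03 and Klf9 with -0.15 ± 0.04. Under median-of-ratios scaling 1 rose and 1 fell. Of 12 CREB and immediate early genes 0 passed in limma and 1 had an unadjusted p under 0.05.

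**Figure D2:**
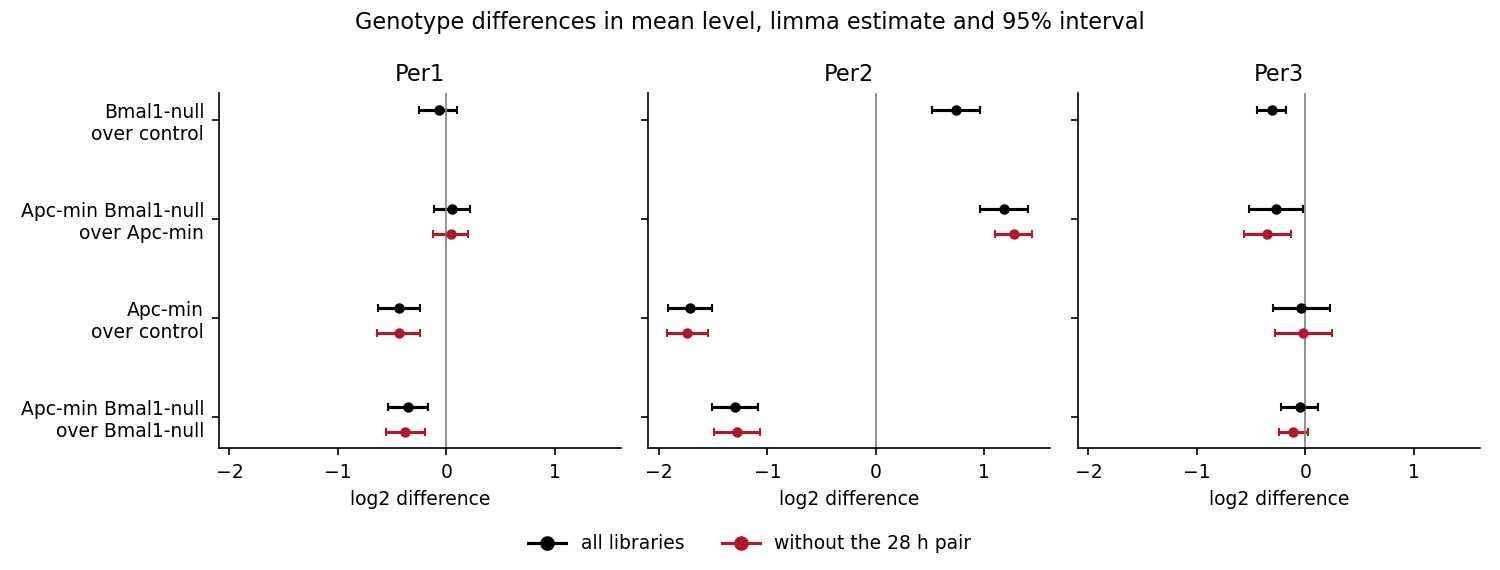
Log2 difference in mean level for each Period gene (limma estimate and 95% interval) in 4 comparisons, with all libraries in black and without the 28 h pair in red where Apc-min libraries enter. Per2 lies at 0.74 and 1.18 in the Bmal1 comparisons and at -1.71 and -1.30 in the Apc comparisons, and Per1 lies near 0 in the Bmal1 comparisons only.

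Per2 also rose with Bmal1 loss in Apc-min organoids, and the increase was larger there on the log2 scale, though not in TPM. Per2 averaged 7.73 TPM ± 2.30 in Apc-min Bmal1-null and 2.92 TPM ± 1.01 in Apc-min organoids (SD, n = 22 each). The log2 difference was 1.18 ± 0.11 (SE), or 2.27-fold, with an adjusted p of 1.43e-10 in limma. On the log2 scale Per2 was higher in Apc-min Bmal1-null organoids at 12 of 12 times, but by only 0.03 at 28 h. In TPM the 28 h mean was lower, at 4.33 against 4.62 in Apc-min organoids, with the 28 h pair kept under its labels. Without the 28 h pair, 20 of 21 Apc-min Bmal1-null libraries lay above every Apc-min library and the difference was 1.27 ± 0.08. Among all 88 libraries the log2 effect of Bmal1 loss on Per2 was 0.40 ± 0.16 larger in Apc-min than in Apc wild-type organoids (95% interval 0.09 to 0.72, adjusted p = 0.0311 in limma). That interaction was called for 47.7% of 13846 genes, so a call there is common. The Per2 call was lost without the library Apc-min Bmal1-null 46 h replicate 1 (0.36, adjusted p = 0.0537 in limma). It was also lost without a filter on low values (0.40). Without the 28 h pair the Per2 interaction was 0.49 (adjusted p = 0.00428 in limma). Within the lower-numbered libraries Per2 averaged 8.07 TPM ± 2.14 in Apc-min Bmal1-null (n = 12) and 3.20 TPM ± 1.37 in Apc-min organoids (SD, n = 10), or 8.45 TPM ± 1.79 and 2.80 TPM ± 0.580 without the 28 h pair (n = 11 and 9). In this comparison sex-linked genes again moved, with 1 higher and 4 lower of 5. Markers of epithelial cell types moved with it too. Both tested enterocyte markers and both tested goblet cell markers rose, with log2 differences of 2.92 for Fabp2 and 2.5 for Tff3, whereas all 3 tested Paneth cell markers and 2 of 3 stem cell markers fell, with -1.68 for Mmp7 and -1.35 for Lgr5. The endothelial marker Tek rose with 2.30, whereas Cdh5, another endothelial marker, fell with -1.27. The markers named here were picked after their values were seen. The part of these markers in the Per2 difference was not tested. For Per1 and Per3 the interaction was 0.08 ± 0.13 and 0.01 ± 0.15, with 95% intervals of -0.18 to 0.34 and -0.29 to 0.31.

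Per1 averaged 18.8 TPM ± 3.58 in Apc-min Bmal1-null and 18.8 TPM ± 4.35 in Apc-min organoids (SD, n = 22 each), and the log2 difference of 0.05 had a 95% interval of -0.11 to 0.22. Per3 averaged 2.61 TPM ± 0.988 in Apc-min Bmal1-null and 3.62 TPM ± 1.57 in Apc-min organoids, with a difference of -0.27 ± 0.12 that missed the threshold (adjusted p = 0.0568 in limma). Without the 28 h pair Per3 averaged 2.46 TPM ± 0.682 in Apc-min Bmal1-null and 3.71 TPM ± 1.55 in Apc-min organoids (SD, n = 21 each), and the difference of -0.35 ± 0.11 was called (adjusted p = 0.00503). Per3 differed between the library sets of Apc-min organoids. It averaged 4.90 TPM ± 1.39 in the 10 lower-numbered libraries of each time and 2.55 TPM ± 0.621 in the 12 higher-numbered ones, and Per1 averaged 22 TPM ± 3.74 and 16.2 TPM ± 2.91 in the same sets (SD). This was not particular to Period genes: over 12964 genes the difference between the sets at 1 time correlated with that at another time with a median r of 0.80, and Arntl averaged 13 TPM ± 3.89 in the lower-numbered and 9.46 TPM ± 2.01 in the higher-numbered set. In this comparison 24.6% of 12885 genes were called higher and 35.7% lower, so a called gene is not rare here.

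With Bmal1 loss in Apc-min organoids 24.6% of all genes were called higher and 35.7% lower, which the list counts below stand against. Of 13 clock partners, 5 rose and 5 fell. Those that fell include Arntl itself (-1.01), the gene altered by the genotype. Npas2, which encodes the stand-in for CLOCK, rose with a log2 difference of 1.60 ± 0.24 (SE), and Cry1 rose with 1.38 ± 0.13, whereas Nr1d2 fell with -1.60 ± 0.15. Of 20 PER protein regulators and partners 4 rose and 6 fell. Usp2 fell with -1.02 ± 0.14, the opposite sign to Apc wild-type organoids. Fbxl21 and Csnk1e fell with -0.70 ± 0.12 and -0.39 ± 0.06. Fbxl21 is an F-box protein of Cryptochrome turnover and Csnk1e a casein kinase that phosphorylates PER. Of 12 glucocorticoid response genes 2 rose and 7 fell, and without the 28 h pair 3 rose and 8 fell. Of 12 CREB and immediate early genes 3 rose and 2 fell, led by Jun with -1.22 ± 0.15.

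The Apc comparisons gave the largest differences in Per2 level, and they are equally comparisons of medium and library series. Reads unmapped as too short averaged 1.31% in Apc-min Bmal1-null, 1.3% in Apc-min, 6% in Bmal1-null and 6.73% in control libraries. Per1 and Per2 fell in Apc-min organoids on both Bmal1 backgrounds, and Per3 passed in neither. Per2 was 2.92 TPM ± 1.01 in Apc-min and 11.7 TPM ± 3.36 in control organoids (SD, n = 22 each), a log2 difference of -1.71 ± 0.10 (SE) with an adjusted p of 1.76e-17 in limma. It was lower at 12 of 12 times, and 21 of 22 Apc-min libraries lay below every control library. The exception was the 28 h library that goes against its label. Per2 was 7.73 TPM ± 2.30 in Apc-min Bmal1-null and 19.9 TPM ± 4.23 in Bmal1-null organoids, a difference of -1.30 ± 0.10 (adjusted p = 4.70e-14). Those ranges did not overlap in any of the 22 libraries of either genotype. Per1 had a difference of -0.44 ± 0.10 between Apc-min and control organoids (adjusted p = 1.04e-04) and of -0.35 ± 0.09 between Apc-min Bmal1-null and Bmal1-null organoids (adjusted p = 5.50e-04). Per3 had differences of -0.04 and -0.05 with 95% intervals of -0.30 to 0.23 and -0.22 to 0.12. The first of these averages library sets that go opposite ways, as Per3 was 4.90 TPM ± 1.39 in Apc-min (n = 10) and 3.70 TPM ± 0.966 in control organoids (n = 11) in the lower-numbered set, and 2.55 TPM ± 0.621 (n = 12) and 3.45 TPM ± 0.901 (n = 11) in the higher-numbered set (SD).

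Most genes moved in these comparisons. Between Apc-min and control organoids 50.5% of 13663 genes were called higher and 31.1% lower, and between Apc-min Bmal1-null and Bmal1-null organoids 45.7% of 13404 were called higher and 38.8% lower. The median log2 difference of all genes between Apc-min and control organoids was 0.17 in TPM and 0.00 after median-of-ratios scaling, which moved Per1 to -0.61, Per2 to -1.86 and Per3 to -0.17. A long-over-short index of each library was taken as the mean log2(TPM + 1) of 3086 genes over 6000 exonic bases less that of 1541 genes under 2000 exonic bases. It averaged -0.64 in Apc-min Bmal1-null, -0.63 in Apc-min, -1.04 in Bmal1-null and -1.02 in control organoids. With it as a covariate, chosen after the data were seen, the difference of Per1 between Apc-min Bmal1-null and Bmal1-null organoids was -0.79 and that of Per3 was -0.32 (adjusted p = 0.00167). Markers of epithelial cell types moved with the same comparisons. Median sums of the 4 Paneth cell markers were 544 TPM in Apc-min Bmal1-null, 1953 in Apc-min, 7976 in Bmal1-null and 7934 in control organoids. The 4 goblet cell markers had 251, 39.7, 4688 and 4773 TPM in the same order. Of the Paneth cell markers Lyz1, Itln1 and Ang4 fell in both comparisons, whereas Mmp7 rose with 1.89 and, on the Bmal1-null background, 0.38. The part of cell makeup in the Period differences was not tested.

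Of all genes tested, 50.5% were called higher and 31.1% lower between Apc-min and control organoids, and 45.7% and 38.8% on the Bmal1-null background. Of 13 clock partners 0 rose and 6 fell between Apc-min and control organoids. Their median log2 difference was -0.28 against 0.17 over all genes. Between Apc-min Bmal1-null and Bmal1-null organoids 4 of the partners rose and 7 fell. Npas2 fell with -2.51 ± 0.22 and -1.50 ± 0.15 (SE), and Nfil3, a D-box repressor, with -1.06 ± 0.06 and -1.83 ± 0.06. Glucocorticoid response genes fell in both, 10 of 13 and 11 of 13, with 2 and 1 higher. The metallothioneins Mt2 and Mt1 led them with -3.40 ± 0.05 and -2.76 ± 0.06 between Apc-min and control organoids, and with -4.07 ± 0.07 and -3.07 ± 0.05 on the Bmal1-null background. Of 20 PER protein regulators 14 rose and 4 fell between Apc-min and control organoids, against 9 and 5 after median-of-ratios scaling. Csnk1e rose with 1.3 ± 0.05 and Csnk2a2, a catalytic subunit of casein kinase 2, with 0.74 ± 0.09. Between Apc-min Bmal1-null and Bmal1-null organoids 9 of 19 rose and 4 fell, against 9 and 7 after median-of-ratios scaling, and Usp2 fell with -2.12 ± 0.10. Of 12 CREB and immediate early genes 6 rose and 5 fell between Apc-min and control organoids, and 5 rose and 5 fell on the Bmal1-null background.

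Over the day, Per2 and Per3 of control organoids were highest between 28 and 34 h and lower from 38 h on, although a 24 h rhythm did not pass the test. Mean Per2 of control organoids was 9.21 TPM at 24 h, 14.3 TPM at 28 h, 17.8 TPM at 34 h, 9.36 TPM at 38 h, 8.46 TPM at 40 h and 9.01 TPM at 46 h. Per3 was 3.03 TPM at 24 h, 4.88 TPM at 30 h, 2.56 TPM at 38 h and 3.02 TPM at 46 h. Per1 was 23.2 TPM at 24 h, 32.8 TPM at 34 h and 20.4 TPM at 40 h. These means rest on 1 or 2 libraries each. Between the highest and the lowest time mean Per1 differed 1.61-fold, Per2 2.10-fold and Per3 1.91-fold. In Bmal1-null organoids the highest and lowest time means of Per2 were neighbours, 24.6 TPM at 36 h and 15.4 TPM at 38 h, and those of Per1 were 30.9 TPM at 32 h and 18.8 TPM at 38 h.

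**Figure D3:**
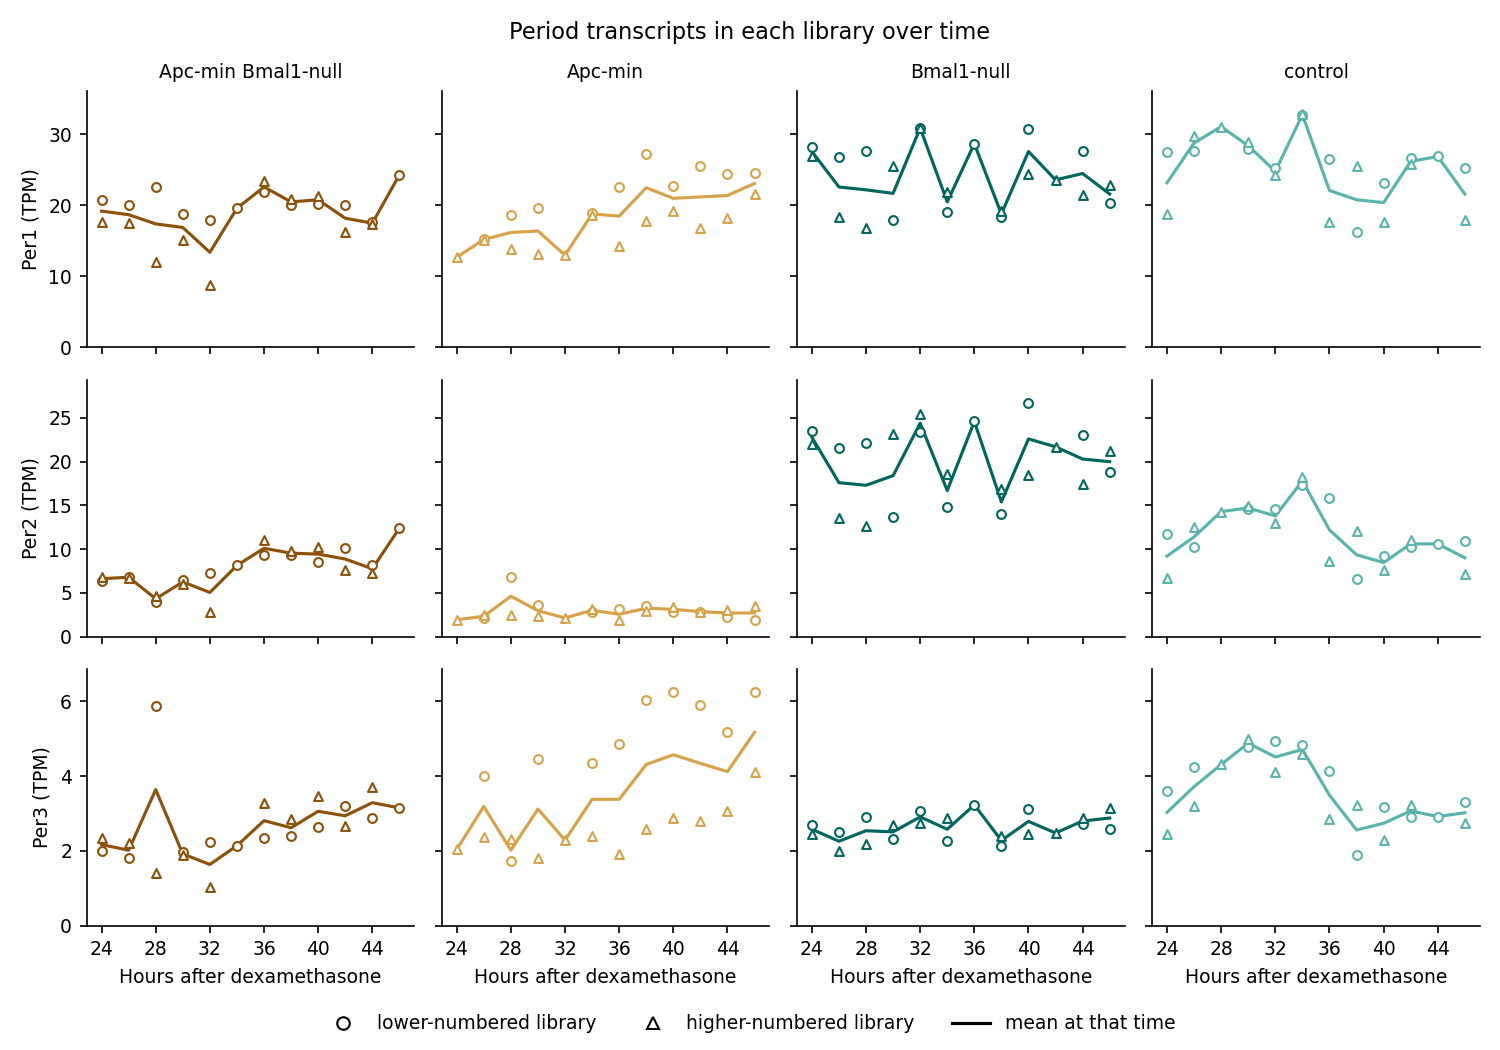
TPM of the 3 Period genes against hours after dexamethasone in each genotype, with circles for the lower-numbered and triangles for the higher-numbered library of each time and a line through the time means. Control Per3 reached 4.88 TPM at 30 h and 2.56 TPM at 38 h, whereas Bmal1-null Per3 stayed between 2.26 and 3.23 TPM.

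A cosine of 24 h period fitted to the 22 control libraries gave Per1 a log2 amplitude of 0.19 ± 0.08 (SE) and a peak at 29.3 h, Per2 0.37 ± 0.09 and 31.5 h, and Per3 0.32 ± 0.06 and 30.5 h. Adjusted p-values in limma were 0.420, 0.203 and 0.0888, so none passed, and 0.0557% of 12570 genes did. A single cycle was sampled, so period cannot be estimated. In control organoids Per3 passed after median-of-ratios scaling (0.28, adjusted p = 0.0154) and in the authors' quantile-normalized values, where Per2 passed as well (0.27 and 0.31, adjusted p = 0.00202 and 0.0171). Control Per3 also passed with a term for library set, where more genes passed as well. The long-over-short index of control libraries moved with time too, from a time mean of -0.75 at 34 h to -1.39 at 38 h. The index as a covariate was chosen after the data were seen. With it Per2 had an amplitude of 0.27 ± 0.04 peaking at 33 h and Per3 of 0.24 ± 0.04 peaking at 31.2 h. Both passed (adjusted p = 0.0112 and 0.0107 in limma), whereas Per1 had 0.06 ± 0.05. Within the lower-numbered control libraries the Per3 amplitude was 0.36 and within the higher-numbered ones 0.33, with peaks at 29.7 and 31.2 h. Of 13 clock partners 4 passed in control organoids, among them Tef (amplitude 0.57 ± 0.09, peak at 30.4 h), Nr1d1 (0.55 ± 0.08, 25 h) and Dbp (0.38 ± 0.06, 29.6 h), and 6 passed after median-of-ratios scaling.

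In Bmal1-null organoids the amplitudes were 0.01 ± 0.08 for Per1, 0.07 ± 0.09 for Per2 and 0.03 ± 0.05 for Per3 (SE, n = 22), with adjusted p-values in limma of 0.996 to 0.999. In limma 0 of 12550 genes passed there, 0%, and 864 had an unadjusted p under 0.05. Of the 13 clock partners 0 passed in limma, and 1 had an unadjusted p under 0.05. The test of the difference in rhythm between Bmal1-null and control organoids called 0.0395% of 12654 genes and none of the Period genes. Its size was 0.20 ± 0.12 for Per1, 0.43 ± 0.13 for Per2 and 0.34 ± 0.08 for Per3, with adjusted p of 0.826, 0.826 and 0.478. The unadjusted p-values were 0.239, 0.00854 and 3.02e-04 in limma. With the long-over-short index as a covariate, chosen after the data were seen, Per2 and Per3 passed (0.26 and 0.24, adjusted p = 0.0279 and 0.0448). Per3 also passed after median-of-ratios scaling (0.29, adjusted p = 0.0432). Of 13 partners 4 passed without either step, among them Tef, Nr1d1 and Dbp with sizes of 0.59, 0.58 and 0.44.

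In Apc-min organoids mean Per1 and Per3 were highest at 46 h, the last time, as were mean Per1 and Per2 in Apc-min Bmal1-null organoids. In Apc-min organoids mean Per1 was 18.8 TPM at 34 h and 23.1 TPM at 46 h, and mean Per3 was 3.38 and 5.17 TPM at the same times, with 2 libraries each. The 24 h values of 12.7 TPM for Per1 and 2.04 TPM for Per3 are from 1 library of the higher-numbered set, which was the lower set for both genes. Per2 of Apc-min organoids stayed between 1.93 and 3.25 TPM apart from 28 h, where the library that goes against its label raised the mean to 4.62 TPM. In Apc-min Bmal1-null organoids mean Per2 was 6.62 TPM at 24 h, 5.05 TPM at 32 h, 10.1 TPM at 36 h and, in 1 library, 12.4 TPM at 46 h. The cosine gave Apc-min Bmal1-null Per2 an amplitude of 0.39 ± 0.09 (SE) with a peak at 40.7 h, and it passed (adjusted p = 0.0439 in limma, n = 22), where 2.59% of 12206 genes passed. That call was lost when any of 18 of the 22 libraries was left out (adjusted p of 0.0171 to 0.0965 over all 22) and with a linear time term (0.35, adjusted p = 0.729). Apc-min Bmal1-null Per1 had 0.15 ± 0.08 and Per3 0.23 ± 0.10. Per3 passed in limma without Apc-min Bmal1-null 28 h replicate 1, the library against its label (0.32, adjusted p = 0.00484), where 1444 of 12126 genes passed.

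In Apc-min organoids Per1 had an amplitude of 0.26 ± 0.08 (SE) peaking at 41.1 h and Per3 of 0.33 ± 0.13 peaking at 41.7 h, with adjusted p-values in limma of 0.0677 and 0.163, and Per2 had 0.06 ± 0.10. In that genotype 12% of 12625 genes passed, and 401 of 12633 passed without the 28 h library. Per1 passed when Apc-min 30 h replicate 1, 36 h replicate 2 or 42 h replicate 2 was left out (adjusted p = 0.0316, 0.0439 and 0.0382). A linear time term lowered the amplitude of Per1 to 0.05 ± 0.11 and of Per3 to 0.09 ± 0.21. With the long-over-short index as a covariate, chosen after the data were seen, both passed (0.28 ± 0.08 and 0.39 ± 0.11, adjusted p = 0.0251 for both in limma). Both also passed with a term for library set, where more genes passed as well. Within the lower-numbered Apc-min libraries Per3 had an amplitude of 0.42 and within the higher-numbered ones 0.22, with peaks at 40.9 and 43.5 h. Among clock partners 1 of 13 passed in Apc-min organoids, Arntl, with 0.42 ± 0.10 and a peak at 40.3 h, and 0 passed in limma without the 28 h library. In Apc-min Bmal1-null organoids 4 of 13 passed, led by Npas2 (0.73 ± 0.13, peak at 41.1 h) and Ciart (0.63 ± 0.14, 41.9 h). Without the 28 h library 6 of 13 passed, as did 1444 of 12126 genes, against 316 of 12206 genes with it.

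**Figure D4:**
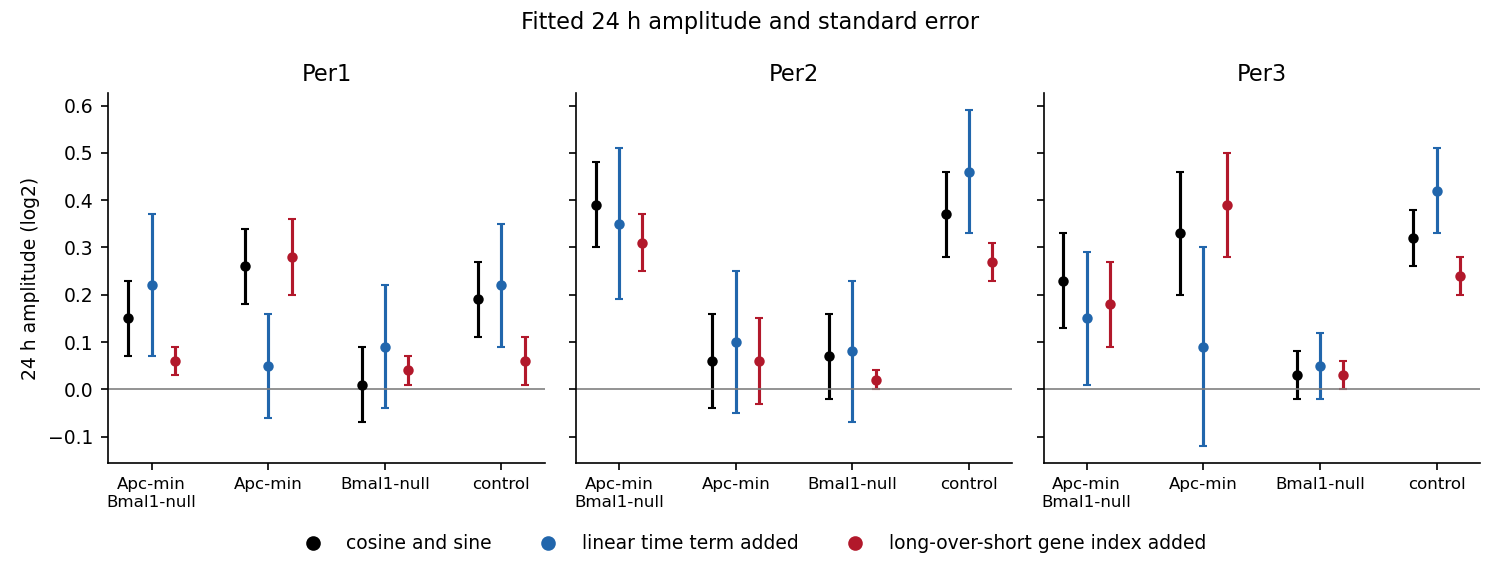
Log2 amplitude of a 24 h cosine (± SE) for each Period gene and genotype, fitted alone (black), with a linear time term (blue) and with the long-over-short index (red). Control Per3 is at 0.32, 0.42 and 0.24, whereas Apc-min Per3 is at 0.33, 0.09 and 0.39 and Bmal1-null Per3 is at 0.05 or less.

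The rhythm test between Apc-min and control organoids called Per1 and Per3. Its size was 0.45 ± 0.11 for Per1 (SE, adjusted p = 0.0277 in limma), 0.65 ± 0.14 for Per3 (adjusted p = 0.0207) and 0.33 ± 0.13 for Per2 (adjusted p = 0.182), where 12.3% of 13663 genes were called. The peaks on which it rests were 41.1 h in Apc-min and 29.3 h in control organoids for Per1, and 41.7 h and 30.5 h for Per3. With a linear time term neither passed (0.27 with an adjusted p of 0.882 for Per1, and 0.51 with 0.864 for Per3). The Per1 call was also lost after median-of-ratios scaling (0.35, adjusted p = 0.0589), with the index as a covariate (0.36, adjusted p = 0.0666) and with no filter on low values (0.45, adjusted p = 0.061). Without control 38 h replicate 1, control 40 h replicate 2 or Apc-min 42 h replicate 1 the Per1 call was lost (adjusted p = 0.0514, 0.0616 and 0.0518). In the same test 7 of 13 clock partners were called, and 5 without the 28 h pair, where 815 of 13674 genes were called. Between Apc-min Bmal1-null and Bmal1-null organoids the test called 0.836% of 13404 genes and no Period gene, with sizes of 0.14 ± 0.12, 0.34 ± 0.13 and 0.21 ± 0.11 for Per1, Per2 and Per3. Per3 passed there in limma without Apc-min Bmal1-null 28 h replicate 1 (0.30, adjusted p = 0.0434), where 368 of 13362 genes were called. Between Apc-min Bmal1-null and Apc-min organoids 0% of 12885 genes were called in limma, with 880 at an unadjusted p under 0.05, and the sizes for Per1, Per2 and Per3 were 0.11 ± 0.12, 0.40 ± 0.13 and 0.12 ± 0.16.

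The 3 genes were positively correlated from library to library where Apc was intact. Over all 88 libraries with genotype means removed, many other genes were more like each of them than the other members were. There Per2 stood at rank 2009 and Per3 at rank 1819 of 11795 genes by likeness to Per1. Per3 stood at rank 6005 by likeness to Per2. Those ranks take in both Apc-min genotypes and the 28 h pair, so they are not ranks within the Apc-intact libraries. Per1 and Per2 had a Pearson r of 0.95 and a Spearman rho of 0.96 over the 22 Bmal1-null libraries, and r of 0.88 and rho of 0.75 over the 22 control libraries. For both r the permutation p was 1e-05, the smallest that 100000 permutations can give, or 2.40e-05 adjusted over 12 relations (permutation p for rho, 1e-05 and 9.00e-05). Without the 2 libraries farthest from the median of Per1, r was 0.93 in Bmal1-null and 0.86 in control organoids, and within the lower- and higher-numbered libraries it was 0.97 and 0.94 in Bmal1-null and 0.80 and 0.94 in control organoids. Per2 and Per3 had r of 0.78 and rho of 0.75 in Bmal1-null and r of 0.90 and rho of 0.89 in control libraries (adjusted permutation p for r, 4.00e-05 and 2.40e-05, and r of 0.71 and 0.86 without the 2 farthest). Per1 and Per3 had r of 0.72 and rho of 0.73 in Bmal1-null and r of 0.79 and rho of 0.72 in control libraries (adjusted permutation p for r, 4.11e-04 and 2.40e-05, and r of 0.67 and 0.73 without the 2 farthest). The long-over-short index correlated with Per1 and Per2 at r of 0.93 and 0.98 in Bmal1-null and at 0.88 and 0.80 in control libraries, and its part in the shared movement was not tested.

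Apc-min libraries fall into 2 sets by Per3, and no pooled r is given there. Per1 and Per3 had r of 0.65 in the lower-numbered and 0.85 in the higher-numbered set, or 0.87 in the lower-numbered set without the 28 h library. Per1 and Per2 had r of -0.14 in the lower-numbered set (0.21 without the 28 h library) and 0.93 in the higher-numbered set. Per2 and Per3 had r of -0.75 in the lower-numbered set (-0.01 without the 28 h library) and 0.80 in the higher-numbered set. In Apc-min Bmal1-null organoids Per2 and Per3 had r of 0.39 and rho of 0.62 over 22 libraries (adjusted permutation p for r, 0.0906). Without the 28 h library r was 0.86 and rho 0.84 (permutation p for r, 1e-05, unadjusted). Per1 and Per2 had r of 0.74 and rho of 0.61 there (adjusted permutation p for r, 4.80e-04). Without the 2 farthest libraries r was 0.41. Without the 28 h library r was 0.91, and still 0.77 without the 2 farthest, so the drop to 0.41 came with the 28 h library kept. Within the lower- and higher-numbered sets r was 0.13 and 0.99, and 0.63 in the lower-numbered set without the 28 h library. Per1 and Per3 had r of 0.69 and rho of 0.54 there (adjusted permutation p for r, 0.00101), and r of 0.42 without the 2 farthest. Without the 28 h library r was 0.72, and 0.33 without the 2 farthest, so that relation rests largely on them. The long-over-short index correlated with Per1, Per2 and Per3 at r of 0.95, 0.71 and 0.55 in Apc-min Bmal1-null libraries. Without the 28 h library the values were 0.95, 0.83 and 0.60. The part of the index in these relations was not tested, and its pooled r in Apc-min libraries is left out because of the 2 sets.

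Likeness to other genes was taken as Pearson r of log2(TPM + 1) over the 48 genotype and time means, among 11795 genes, as a description only. These means share medium, library series and genotype. Per2 was most like Npas2 (0.97), followed by Myo5b and Ddc (0.96) and Slc18b1 and Ahcyl2 (0.95). Per1 was most like Ralgapa2 (0.95), with Kdm6b, Rnf44, Aco1 and Cmip at 0.94. Per3 was most like Aldh5a1 (0.84), Lpin1 and Foxo3 (0.83), and Ciart and Tshz2 (0.81), of which Ciart is a clock repressor. Per2 and Per3 had r of -0.04 with each other on this scale, and Per1 had 0.70 with Per2 and 0.55 with Per3. With the mean of each genotype removed, over the 88 libraries, Per2 was most like the clock repressor Cry2 (0.87), Per1 like Tcf25 (0.94), and Per3 like Etv5, Lpcat3 and Cited2 (0.90). All these likeness values include the 28 h pair under its labels and the set difference of Apc-min organoids. Whether they rest on either was not tested.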

How the data were processed

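RNA-seq of 88 organoid libraries was analysed from TPM tables, 1 per genotype, deposited by the authors, and the submitters' processing notes name STAR 2.5, RSEM 1.3.0 and GRCm38. The labels name 96 libraries, and 8 were not used by the authors. The signal values are quantile-normalized TPM that the authors deposited per genotype, and served as an alternative. The read counts and percent values of the alignment table come, per the file headers, from the aligner's log as deposited by the authors. Tests used limma 3.58.1 in R 4.3.3, with a variance trend, on log2(TPM + 1) of genes whose mean reached 1 TPM in a compared genotype, and Benjamini-Hochberg adjustment over all genes at 0.05. Level was tested with time as a factor of 12 levels. Rhythm was tested by F tests of a cosine and a sine of 24 h period, and its difference by their genotype terms. The tests were checked on simulated data. Replicate numbers follow accession order. Gene symbols came from GENCODE M21, and sequences from RefSeq tables of GRCm38.p6. The named genes are the 3 members, Arntl, up to 4 genes of a list with the largest called differences, and the 5 genes most like each member. Values of 1 listed clock partner are not reported here. The members and lists were chosen with earlier results of these data known. The alternatives were another pseudocount, filter and scaling, a term for library set, a linear time term, 1 library left out, and the long-over-short index. That index was chosen after the data were seen.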

Additional observations from a re-analysis of the deposited data

Results flagged for a closer look

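Apc-min and control organoids differed in the rhythm test of Per1 (0.45) and of Per3 (0.65), each by a test of the genotype terms themselves. That test called 12.3% of all genes, and both Period calls were lost with a linear time term. Apc genotype cannot be told apart from medium and library series there. The effect of Bmal1 loss on Per2 differed between Apc-min and Apc wild-type organoids by 0.40 on the log2 scale, by the interaction test. That test called 47.7% of all genes, and the Per2 call was lost without Apc-min Bmal1-null 46 h replicate 1.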

How the results depend on the processing

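Of 343 values under other settings, 307 kept their direction and side of the threshold, and of 1584 values with 1 library left out 1516 did. The cause of a change was not tested except where fewer genes or libraries are named. Median-of-ratios scaling gave a rhythm difference between Bmal1-null and control of 0.29 for Per3 (now called), a Per1 rhythm difference between Apc-min and control of 0.35 (call lost), a Per3 level of -0.15 between Apc-min Bmal1-null and Bmal1-null (called) and a control Per3 amplitude of 0.28 (called). Without a filter on low values, which tests more genes, the Per1 rhythm difference between Apc-min and control (0.45), the Per2 interaction (0.40) and the Apc-min Bmal1-null Per2 amplitude (0.39) lost their calls. With a linear time term the Per1 and Per3 rhythm differences between Apc-min and control were 0.27 and 0.51 and the Apc-min Bmal1-null Per2 amplitude 0.35, all without a call. With time as a factor that Per2 value was 0.67, and within the lower- and higher-numbered libraries 0.35 and 0.43, all without a call. With all 4 genotypes in 1 fit the Per3 level was -0.31 between Bmal1-null and control (call lost) and -0.30 between Apc-min Bmal1-null and Apc-min (called). Quantile-normalized values gave control amplitudes of 0.31 for Per2 and 0.27 for Per3, both called. With the long-over-short index, the following were called: control amplitudes of 0.27 (Per2) and 0.24 (Per3), Apc-min amplitudes of 0.28 (Per1) and 0.39 (Per3), rhythm differences between Bmal1-null and control of 0.26 (Per2) and 0.24 (Per3) and between Apc-min Bmal1-null and Bmal1-null of 0.28 (Per2), and a Per3 level of -0.32 in the last pair. The Per1 rhythm difference between Apc-min and control was 0.36 and lost its call. Without the 28 h pair the Per3 level between Apc-min Bmal1-null and Apc-min was -0.35, the Apc-min Bmal1-null Per3 amplitude 0.32 and the Per3 rhythm difference between Apc-min Bmal1-null and Bmal1-null 0.30, all called, and the Per3 interaction was -0.07. With library set as a replicate block the Per3 level between Apc-min Bmal1-null and Apc-min was -0.32 and the amplitudes of control Per3 (0.33), Apc-min Per1 (0.24) and Apc-min Per3 (0.30) were called, the Per3 level between Apc-min and control was 0.01, and the Per3 interaction was -0.03. The block moved the genes with a 24 h rhythm to 289 in control, 437 in Apc-min Bmal1-null and 4179 in Apc-min organoids, and the labels do not state that a set is a line. Set differences of 2 times correlated over 0.1 in 27 of 45 pairs of times in Bmal1-null organoids. They did so in 37, 37 and 36 of 45 in control, Apc-min Bmal1-null and Apc-min organoids. Set differences thus recurred between times in most pairs. The labels give the sets only by library number, although sex-linked genes also separated them in both Bmal1-null genotypes. The set term was used only as an alternative. With 1 library left out the ranges were 0.42 to 0.49 for the Per1 rhythm difference between Apc-min and control, 0.24 to 0.30 for the Apc-min Per1 amplitude, 0.36 to 0.46 for the Per2 interaction, 0.34 to 0.42 and 0.17 to 0.32 for the Apc-min Bmal1-null Per2 and Per3 amplitudes, -0.09 to 0.01 and -0.34 to -0.23 for the Per3 levels between Apc-min and control and between Apc-min Bmal1-null and Apc-min, -0.06 to 0.05 for the Per3 interaction and 0.15 to 0.30 for the Per3 rhythm difference between Apc-min Bmal1-null and Bmal1-null. Per3 has no value under a mean filter of 5 TPM. Every genotype had 22 libraries over a single cycle, and no detection limit for amplitudes was computed.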
